A study of Mus musculus with 12 samples.

Results

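The 42 mouse genes that encode collagen chains were followed over 4 tissues and 3 genotypes. They were all genes of the array's probe table whose symbol has the form Col, a type number, the letter a and a chain number, out of 18193 genes with a probe set of 1 gene symbol, and each was read from the brightest of its probe sets, 82 in all. The animals were Sv/129 mice aged 2 months that lacked p53 (p53-/-), lacked the p66 product of Shc1 (p66-/-), or were wild type (WT). Thymus, heart, lung and liver were each hybridised once per genotype, from RNA pooled from 4 mice, which gave 12 arrays. The deletions were carried by the whole animal, so every tissue of a knock-out lacked the gene. Values are log2 signals, a difference of 1 on this scale is 2-fold, and the number of arrays limits the precision. The level of a probe set depends on its probes, so the level of a gene is compared between arrays and not with that of another gene.

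Collagens are extracellular matrix proteins built of 3 chains wound into a triple helix. Types I, III and V form the fibrils that give tissues tensile strength, whereas type IV forms the sheet-like network of basement membranes and type VI forms beaded filaments around cells. FACIT collagens lie on fibril surfaces, others span the cell membrane, and the multiplexins of basement membrane zones release fragments such as endostatin. Fibroblasts, smooth muscle cells, endothelium and, for type IV, epithelium are the usual sources, and hepatic collagen outside injury is scarce.

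Several arrays carried transcripts of other tissues, and these are given first because the collagen values are read beside them. Salivary gland markers had a mean of 5.42 in p53-/- thymus and 5.34 in p66-/- thymus, compared with 13.71 in WT thymus. Skeletal muscle markers had a mean of 9.45 in p53-/- thymus, 6.35 in p66-/- thymus and 6.48 in WT thymus. For hepatocyte markers the mean was 7.28 in p53-/- lung, 10.02 in p66-/- lung and 10.99 in WT lung. Each array nevertheless had its own tissue's markers high, with means of 13.7 to 13.84 for lung epithelium in lung, 13.79 to 14.05 for cardiomyocytes in heart, 14.21 to 14.29 for hepatocytes in liver and 10.19 to 11.49 for thymocytes in thymus. Shc1 read between 9.14 and 9.83 in p66-/- tissues and between 8.57 and 9.09 in WT tissues, and since other products of the gene remain in p66-/- mice this does not check the labels. The p53 gene was not analysed here.

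Collagen levels differed mainly between tissues. In limma with genotype as a block, each tissue was set against the mean of the other 3. The threshold was a Benjamini-Hochberg adjusted p of 0.05, taken over all 18193 genes. Of the 42 genes, 26 passed for at least 1 tissue and 8 for all 4 tissues. The share of all genes is given for single tissues only, so these counts are not compared with other genes. Heart had 17 collagen genes higher and 4 lower, where 16.3% and 20.4% of all genes were called in those directions and 36.6% in either. Lung had 16 higher and 5 lower, against 17.1% and 13.1% of all genes and 30.3% in either direction. Liver had 1 higher and 17 lower, against 14.3%, 19.5% and 33.8% in either direction. Thymus had 0 higher and 14 lower, against 16.4%, 17.5% and 33.9% in either direction. The median difference of the 42 genes was 0.31 in heart, 0.05 in lung, -0.22 in liver and -0.24 in thymus, whereas the median of all genes was 0.07, -0.12, -0.08 and -0.02 in the same tissues. Without the WT thymus and p53-/- lung arrays the counts were 28 in heart, 21 in lung, 20 in liver and 15 in thymus. The share of all genes in that fit is not given here. In a tissue homogenate, fewer cells of a type and less RNA per cell cannot be told apart.

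**Figure D1:**
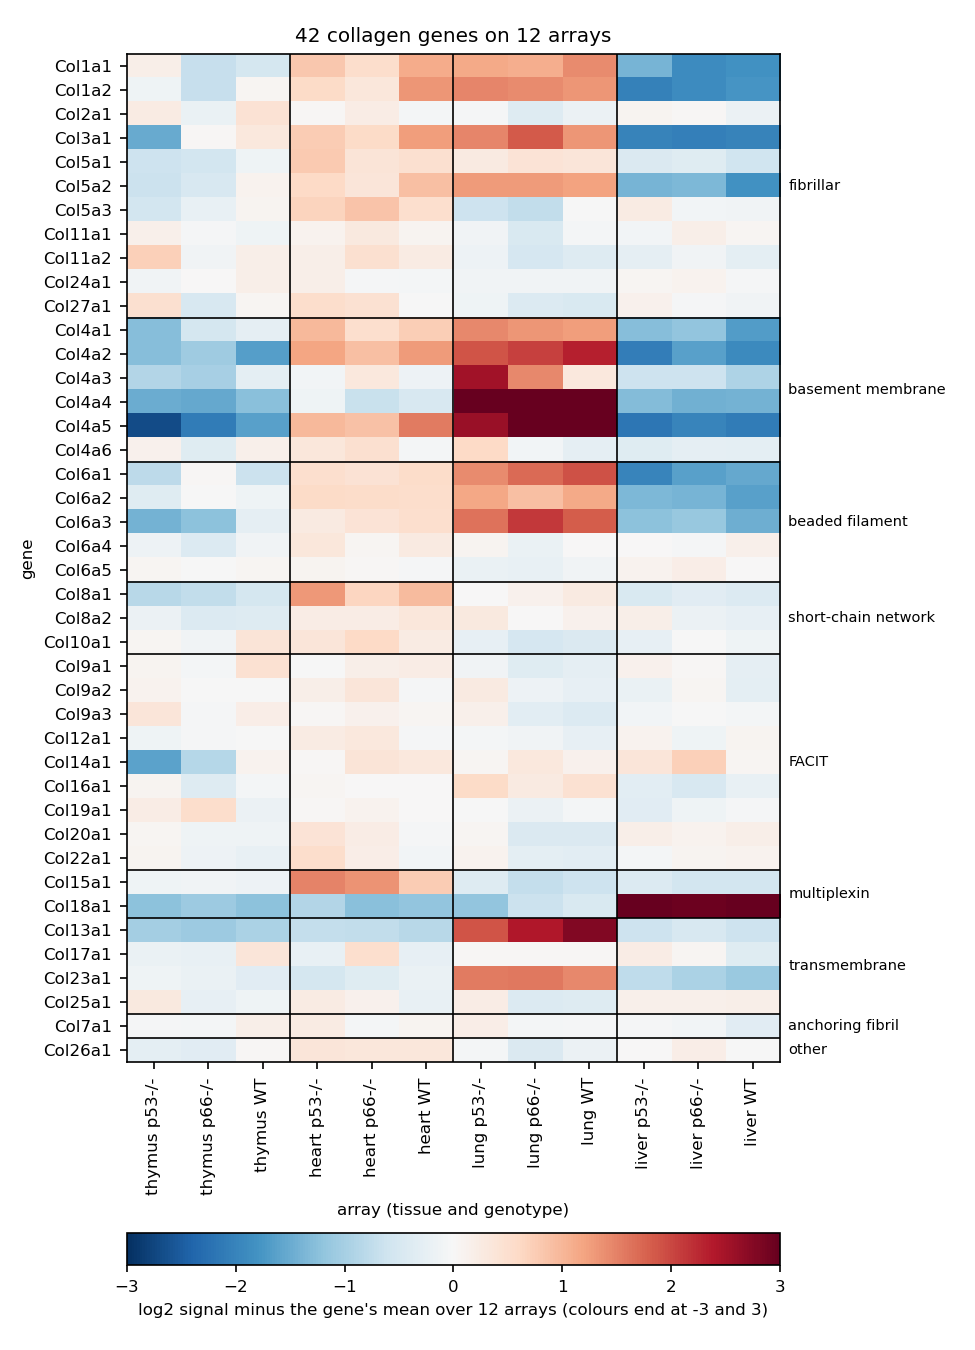
Log2 signal of 42 collagen genes (rows, grouped by structural class) on 12 arrays (columns), each minus the gene's mean over the 12 arrays, with colours ending at -3 and 3. Col4a4, Col4a5 and Col13a1 are high on the lung arrays, Col18a1 on the liver arrays, and most FACIT and several fibrillar genes vary little.

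**Figure D2:**
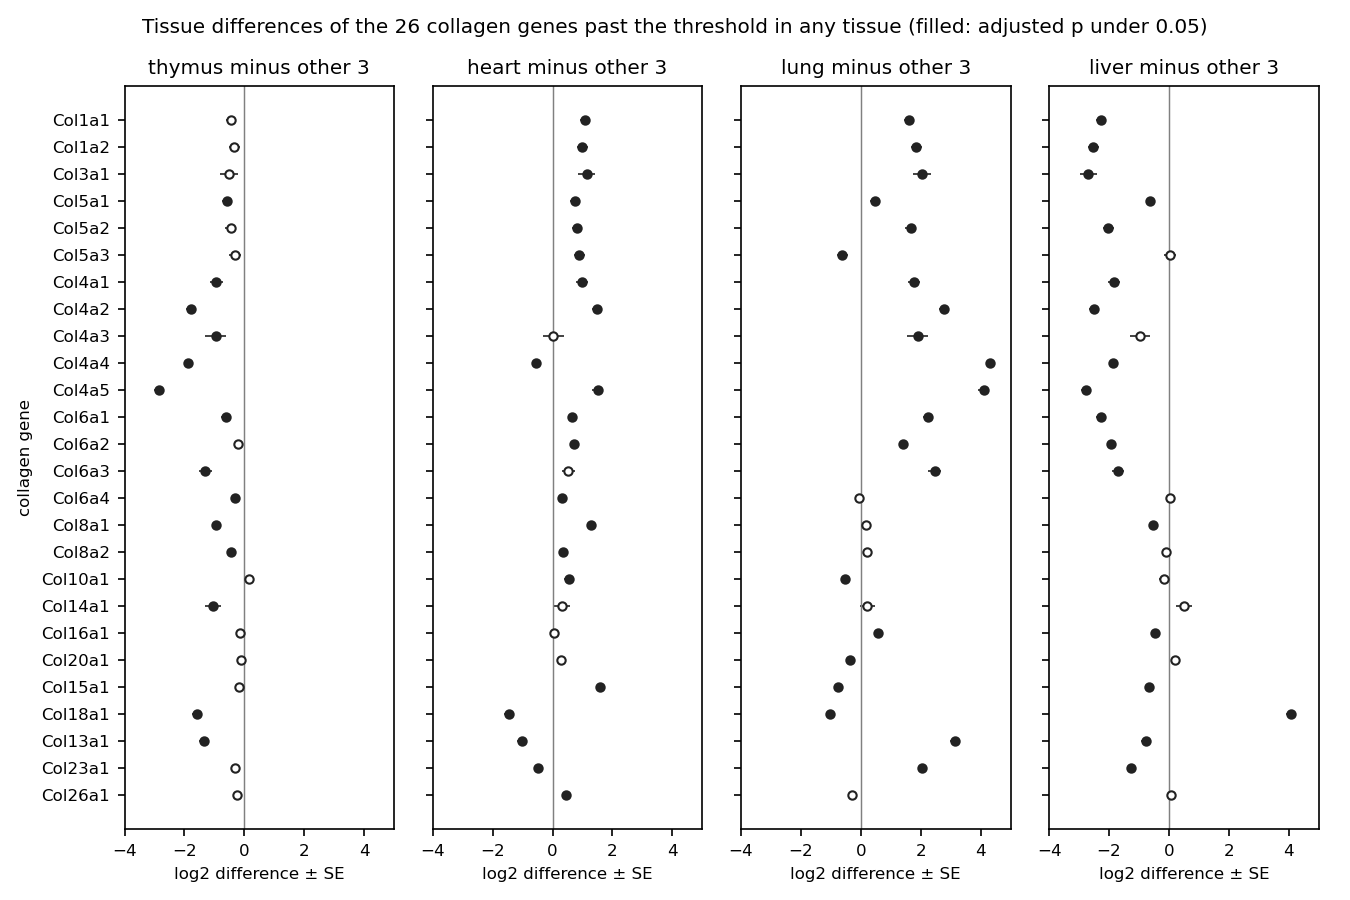
Log2 difference of each tissue from the mean of the other 3, with its standard error from limma, for the 26 collagen genes past the threshold in any tissue. Filled points passed an adjusted p of 0.05, and in liver the only filled point to the right of 0 is Col18a1 at 4.06.

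The type IV chains, which assemble basement membranes, held the largest lung differences. Col4a4, which trimerises with the chains of Col4a3 and Col4a5 in the basement membranes of the lung alveolus and the kidney glomerulus, read 10.43, 10.41 and 10.22 on the p53-/-, p66-/- and WT lung arrays. The same order of genotypes gave 6.98, 6.46 and 6.64 in heart, 5.81, 5.67 and 5.69 in liver, and 5.64, 5.59 and 5.87 in thymus. Every lung array thus exceeded every other array by more than 3 log2 units, while liver and thymus overlapped. Lung exceeded the mean of the other tissues by 4.31 ± 0.13 (SE), or 19.9-fold (adjusted p = 1.07e-08), and heart alone by 3.66 (adjusted p = 1.49e-07).

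Col4a5, the X-linked chain, read 9.69, 10.5 and 10.39 in p53-/-, p66-/- and WT lung, and 8.09, 7.98 and 8.66 in heart. It read 4.94, 5.14 and 5.02 in liver, and 4.42, 5.02 and 5.47 in thymus. The order was lung, then heart, with liver and thymus overlapping below both. The lung difference was 4.11 ± 0.18, or 17.3-fold (adjusted p = 1.18e-07), and heart was also higher than the mean of the others, by 1.51 (adjusted p = 0.000102).

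Col4a3 followed the same order with a wider spread. Its brightest probe set read 10.37, 9.31 and 8.17 in p53-/-, p66-/- and WT lung, against 7.77, 8.17 and 7.70 in heart, 7.25, 7.24 and 6.93 in liver, and 6.99, 6.87 and 7.56 in thymus. The WT lung value was that of the p66-/- heart array, so lung and heart touched. The lung difference of 1.90 ± 0.34 passed (adjusted p = 0.00161), and passed without any 1 of the 12 arrays. A second, dimmer probe set of Col4a3 separated the tissues further, with 8.59, 9.59 and 9.02 in p53-/-, p66-/- and WT lung and no value above 5.02 elsewhere.

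Col4a1 and Col4a2 encode the chains found in nearly all basement membranes, and both were graded over the tissues. Col4a1 read 11.75, 11.62 and 11.56 in p53-/-, p66-/- and WT lung, 11.28, 10.8 and 11.05 in heart, 9.03, 9.13 and 8.63 in liver, and 9.02, 9.77 and 10.04 in thymus. Col4a2 read 10.79, 10.94 and 11.22 in lung, 10.08, 9.79 and 10.18 in heart, 6.82, 7.28 and 6.98 in liver, and 7.61, 7.84 and 7.24 in thymus, in the same order of genotypes. For both genes the lung arrays lay above the heart arrays and the heart arrays above the rest. Between lung and heart directly, Col4a2 passed at 0.97 (adjusted p = 0.00537), whereas Col4a1 at 0.60 did not (adjusted p = 0.0946). Lung exceeded the mean of the other tissues by 1.78 ± 0.21 for Col4a1 (adjusted p = 0.000115) and by 2.78 ± 0.17 for Col4a2 (adjusted p = 1.11e-06), and heart by 0.98 and 1.49 (adjusted p = 0.00541 and 8.48e-05). Without the p53-/- heart array the heart difference of Col4a1 was 0.8 and missed the threshold (adjusted p = 0.0575).

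Col4a6, the last chain of the family, stood apart from these. It read 7.48, 6.79 and 6.62 in p53-/-, p66-/- and WT lung, 7.23, 7.36 and 6.82 in heart, 6.51, 6.62 and 6.6 in liver, and 7.0, 6.52 and 7.04 in thymus. The tissues overlapped, and no tissue passed the threshold.

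**Figure D3:**
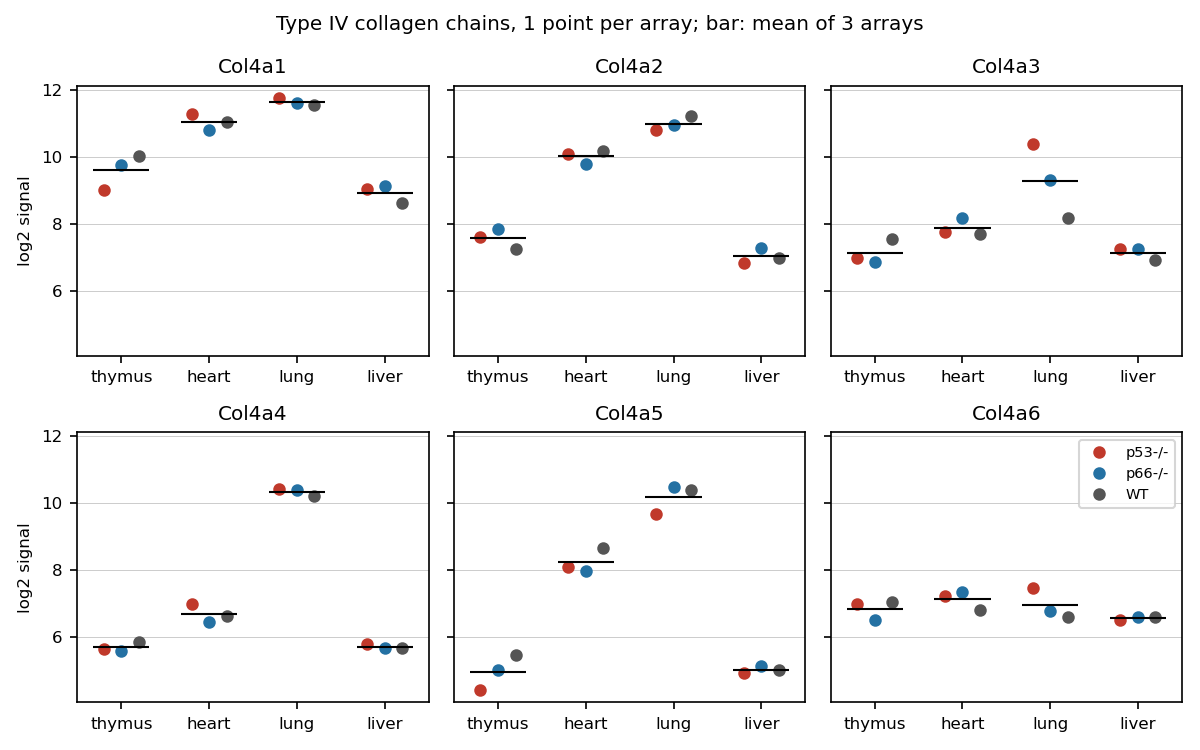
Log2 signal of the 6 type IV collagen chains on each array, with colours for p53-/-, p66-/- and WT and a bar at the mean of 3 arrays. Col4a4 and Col4a5 are separated widely between lung and the other tissues, Col4a3 in lung spreads from 8.17 to 10.37, and Col4a6 is nearly level.

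Type IV genes lie in pairs that run in opposite directions from nearly shared start sites, and the windows between 2 such pairs are shown because each pair's members were highest in the same tissue. In RefSeq (GRCm38.p6), the gene models of Col4a1 and Col4a2 overlap by 85 bases and those of Col4a3 and Col4a4 by 114 bases, and the starts of Col4a2 and Col4a3 lie inside the windows printed for their partners. Each window runs from 250 bases before to 50 bases after a start, 5′ to 3′ on the minus strand, and capitals mark a CCAAT box (CCAAT) or a GC box (GGGCGG) on either strand.
Col4a1, shared with Col4a2, chr8:11312777-11313076: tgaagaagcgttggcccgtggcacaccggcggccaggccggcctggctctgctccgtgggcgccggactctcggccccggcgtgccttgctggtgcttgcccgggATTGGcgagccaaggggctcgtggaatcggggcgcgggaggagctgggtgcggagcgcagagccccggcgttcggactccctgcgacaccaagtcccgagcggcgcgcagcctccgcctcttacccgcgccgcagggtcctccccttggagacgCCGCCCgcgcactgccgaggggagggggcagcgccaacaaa
Col4a4, shared with Col4a3, chr1:82586800-82587099: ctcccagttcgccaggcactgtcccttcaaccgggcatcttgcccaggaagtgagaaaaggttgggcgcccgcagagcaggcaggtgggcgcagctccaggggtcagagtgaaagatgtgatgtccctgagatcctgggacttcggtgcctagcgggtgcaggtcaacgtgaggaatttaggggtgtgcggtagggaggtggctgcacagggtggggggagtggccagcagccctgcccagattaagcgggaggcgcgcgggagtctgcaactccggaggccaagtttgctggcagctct
The Col4a1 window held 1 CCAAT box, 1 GC box and 37 CpG dinucleotides, and 94.4% of 32851 RefSeq windows of the same length held fewer CpG. The Col4a4 window held neither box and 14 CpG, and 63.7% of windows held fewer. Of all windows 37.4% held a CCAAT box and 35.7% a GC box, and a match is a description only.

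Col18a1, a multiplexin of basement membranes whose C-terminal fragment is endostatin, was the only collagen gene higher in liver. It read 11.69, 11.61 and 11.88 on the p53-/-, p66-/- and WT liver arrays, and between 7.43 and 8.23 on the other 9. The liver difference was 4.06 ± 0.16, or 16.7-fold (adjusted p = 1.71e-08), and thymus, heart and lung were each lower than a mean of the others that included liver, at -1.58, -1.47 and -1.01. Among these 3 tissues Col18a1 varied little, and lung minus heart was 0.34 (adjusted p = 0.192). A second probe set gave the same picture, with 11.56, 11.64 and 11.81 in p53-/-, p66-/- and WT liver and at most 7.76 elsewhere.
RefSeq lists 2 start regions for Col18a1 with windows on chromosome 10, shown because the arrays do not tell which was in use; strand and capitals are as above.
Col18a1, first start, chr10:77166481-77166780: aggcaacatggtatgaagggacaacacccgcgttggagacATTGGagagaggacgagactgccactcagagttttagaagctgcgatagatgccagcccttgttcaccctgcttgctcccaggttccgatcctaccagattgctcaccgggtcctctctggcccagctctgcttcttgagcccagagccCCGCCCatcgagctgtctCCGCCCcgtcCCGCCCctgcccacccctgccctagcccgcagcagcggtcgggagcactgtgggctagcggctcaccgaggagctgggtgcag
Col18a1, second start, chr10:77113656-77113955: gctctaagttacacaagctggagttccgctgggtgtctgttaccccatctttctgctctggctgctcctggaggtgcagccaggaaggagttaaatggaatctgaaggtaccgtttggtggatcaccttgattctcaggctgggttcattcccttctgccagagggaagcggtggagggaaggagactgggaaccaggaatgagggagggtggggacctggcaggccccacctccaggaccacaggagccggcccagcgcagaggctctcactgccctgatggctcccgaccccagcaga
The window of the first start held 3 GC boxes and 1 CCAAT box with 16 CpG, whereas that of the second held neither box and 6 CpG.

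Col15a1, the other multiplexin, was highest in heart. It read 9.61, 9.47 and 8.88 in p53-/-, p66-/- and WT heart, and between 7.41 and 8.01 on the other 9 arrays. The heart arrays did not overlap the rest, and the difference was 1.60 ± 0.14 (adjusted p = 1.35e-05). The 2 multiplexins had their highest levels in different tissues. Col15a1 was lower in lung at -0.76 and in liver at -0.66 (adjusted p = 0.00185 and 0.00356), each against a mean that included heart. Its lung and liver arrays overlapped.

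The main fibrillar chains, Col1a1 and Col1a2 of type I and Col3a1 of type III, were highest in lung and heart and lowest in liver. Col1a1 read 9.91, 9.86 and 10.18 in p53-/-, p66-/- and WT lung, 9.58, 9.29 and 9.89 in heart, 7.38, 6.87 and 6.96 in liver, and 8.95, 8.08 and 8.25 in thymus. Col1a2 read 11.83, 11.78 and 11.69 in lung, 10.95, 10.71 and 11.69 in heart, 8.35, 8.48 and 8.61 in liver, and 10.24, 9.69 and 10.43 in thymus. Col3a1 read 12.12, 12.50 and 11.99 in lung, 11.42, 11.24 and 11.91 in heart, 8.66, 8.62 and 8.66 in liver, and 9.16, 10.71 and 10.99 in thymus. Liver was the lowest tissue for all 3, at -2.26 for Col1a1 (adjusted p = 2.14e-06), -2.52 for Col1a2 (adjusted p = 1.17e-06) and -2.69 for Col3a1 (adjusted p = 3.39e-05). Lung was higher by 1.62, 1.86 and 2.05 and heart by 1.09, 0.99 and 1.14, all past the threshold, while no thymus difference passed. The heart call of Col3a1 was lost without the p53-/- heart array, at 0.99 (adjusted p = 0.0864), and without the WT heart array, at 1.04 (adjusted p = 0.0549). Between lung and heart directly, Col1a2 passed at 0.65 (adjusted p = 0.0386), whereas Col3a1 at 0.68 and Col1a1 at 0.39 did not (adjusted p = 0.148 and 0.155), and the Col1a2 call was lost in 6 of the 12 fits that left out 1 array.

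The minor fibrillar chains of type V, which set fibril diameter, did not move together. Col5a2 was highest in lung by 1.67 ± 0.18 and lower in liver at -2.03, like the type I and III chains. Col5a1 was higher in both heart and lung, by 0.74 and 0.46 (adjusted p = 0.00305 and 0.0349), although the lung call held in only 3 of the 12 fits that left out 1 array. Col5a3 was higher in heart by 0.89 (adjusted p = 0.00411) and lower in lung at -0.61 (adjusted p = 0.03), a lung call that was lost in 6 of those 12 fits. Col2a1 and Col11a1, the cartilage fibrillar chains, with Col11a2, Col24a1 and Col27a1 passed in no tissue against the mean of the others. Markers of cartilage averaged 5.54 to 6.06 on every array.

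Of the beaded filament chains, Col6a1, Col6a2 and Col6a3, which form type VI together, kept the same order of the 4 tissues. Lung was higher by 2.23, 1.42 and 2.47 (adjusted p = 3.39e-06, 1.55e-05 and 8.96e-06), and liver lower, at -2.28, -1.94 and -1.70. Col6a3 read 10.25, 10.73 and 10.44 in p53-/-, p66-/- and WT lung, against 7.39, 7.48 and 7.15 in liver, with heart between and thymus, at 7.20, 7.39 and 8.35, overlapping liver. Col6a5 passed in none, and Col6a4 had small differences of 0.30 in heart and -0.30 in thymus whose calls were lost in 11 of the 12 fits without 1 array.

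The transmembrane collagens Col13a1 and Col23a1, shed from the cell surface, were also highest in lung. Col13a1 read 8.07, 8.60 and 8.97 in p53-/-, p66-/- and WT lung, and between 5.10 and 5.71 on the other 9 arrays, a difference of 3.14 ± 0.16, or 8.81-fold (adjusted p = 3.37e-07). Col23a1 read 8.19, 8.22 and 8.07 in lung in that order and between 5.51 and 6.49 elsewhere, a difference of 2.04 ± 0.13 (adjusted p = 1.12e-06). Both sets of lung arrays lay apart from all others. The remaining members of the class, Col17a1 of hemidesmosomes and Col25a1, passed in no tissue.

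Heart had the highest mean for each of the short-chain network collagens, although Col8a2 did not separate lung from heart (-0.11, adjusted p = 0.545). Col8a1, a chain of type VIII found in vessel walls, read 8.30, 7.65 and 7.95 in p53-/-, p66-/- and WT heart and 7.02, 7.13 and 7.26 in lung. It was higher in heart by 1.29 ± 0.15 (adjusted p = 7.65e-05) and the lung minus heart difference was -0.83 (adjusted p = 0.00506). The second probe set of Col8a1 overlapped between these tissues, with 6.84, 6.89 and 8.14 in heart and 6.67, 7.41 and 7.53 in lung. Col8a2 and Col10a1 were higher in heart by 0.34 and 0.54 (adjusted p = 0.0433 and 0.0172), and the Col8a2 call was lost in 9 of the 12 fits without 1 array and the Col10a1 call in 2, those without the p53-/- or the p66-/- heart array. Of the FACITs, Col16a1 was higher in lung by 0.58 (adjusted p = 0.00303), and Col14a1 was lower in thymus at -1.05 (adjusted p = 0.00967). The Col14a1 difference was -0.69 without the p53-/- thymus array and -0.91 without the p66-/- thymus array, and missed the threshold in both (adjusted p = 0.0933 and 0.0695). It read 6.38 and 7.13 in p53-/- and p66-/- thymus and 8.10 in WT thymus, beside 8.11 in WT lung and 8.06 in WT liver. Col20a1 was lower in lung at -0.36 (adjusted p = 0.0479), a call lost in 8 of the 12 fits, and Col26a1 was higher in heart by 0.46 (adjusted p = 0.0199), a call lost without the p53-/- or the p66-/- heart array.

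Direct comparison of lung with heart called 12 collagen genes higher and 8 lower, where 20.4% and 15.9% of all genes were called and 36.2% in either direction. Col4a4, Col13a1, Col4a5 and Col23a1 led the higher ones with 3.66, 3.12, 1.95 and 1.89. Col15a1, Col5a3, Col8a1 and Col10a1 led the lower ones with -1.77, -1.13, -0.83 and -0.79. All 14 thymus differences past the threshold were lower, and the largest were Col4a5 at -2.85, Col4a4 at -1.89, Col4a2 at -1.78 and Col18a1 at -1.58. Each was taken against a mean that included a tissue with high levels. Thymus means lay close to those of liver for Col4a5 (4.97 and 5.03) and Col4a4 (5.7 and 5.72), and of heart for Col18a1 (7.5 and 7.58). For Col4a2 thymus lay above liver (7.57 and 7.03). Without the p53-/- thymus array 8 collagen genes passed in thymus. Leaving out the p66-/- thymus array also lost calls, those of Col4a3, Col5a1, Col6a4, Col8a2 and Col14a1.

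Chains that share a trimer were compared in 12 chosen pairs. Of these pairs, 9 had the same highest tissue and 8 the same order of all 4 tissues. Further pairs were not counted, among them Col4a3 with Col4a5 and Col6a2 with Col6a3, which had the same highest tissue. Col5a2 with Col5a3 and Col9a2 with Col9a3, also not counted, had different ones. The same count over other gene pairs is not given here. Some pairs share a gene. Heart was the highest tissue of 17 of the 42 genes and lung of 16, so genes that share no trimer can match too. The exceptions were Col4a5 with Col4a6, Col5a1 with Col5a2 and Col9a1 with Col9a2, the last with no call for either gene. Lung and heart were not told apart for Col5a1 (-0.2, adjusted p = 0.367), and the second probe set of Col4a6 was highest in lung. Among the pairs with the same highest tissue, Col9a1 with Col9a3 and Col11a1 with Col11a2 also had no call against the mean of the other tissues. The highest tissue of these genes was not established. Of the 26 genes called against the mean of the other tissues, 18 had more than 1 probe set. The second brightest was highest in the same tissue as the first in all 18. The 16 genes with no call against that mean differed from it by between -0.46 and 0.43. Among them were Col7a1 of anchoring fibrils and the FACITs Col9a1, Col9a2, Col9a3, Col12a1, Col19a1 and Col22a1. Col11a2 and Col27a1, also among the 16, were called lower in lung than in heart, at -0.64 and -0.66 (adjusted p = 0.0319 and 0.0262). Both of these calls were lost without the p66-/- heart array (adjusted p = 0.152 and 0.131). As a guide to brightness only, 11 of the 42 probe sets lay below the median gene of every array (7.04 to 7.24).

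Genes of collagen assembly and turnover were followed as lists in the same fits. Of 16 genes of chain modification and folding, 9 were higher and 1 lower in lung, 6 and 3 in heart, 3 and 8 in liver, and 0 and 7 in thymus. Serpinh1, the collagen chaperone of the endoplasmic reticulum, was higher in lung by 1.30 and in heart by 1.11, and lower in liver at -2.01. P4hb, protein disulphide isomerase and the beta subunit of prolyl hydroxylase, was instead higher in liver by 1.68 (adjusted p = 0.000127). Of 10 genes of propeptide removal and crosslinking, 5 were higher in lung and 0 lower. Lox, which starts crosslinking by oxidising lysines, was higher in lung by 3.40 and Pcolce2, an enhancer of procollagen cleavage, by 4.93 (adjusted p = 2.29e-06 and 5.91e-07).

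Of 8 fibril-associated proteoglycans, 4 were higher in heart and 4 in lung, 5 were lower in liver and 4 in thymus. Lum and Dcn, which bind fibrils, were higher in heart by 2.48 and 1.75 (adjusted p = 4.23e-05 and 4.05e-05), whereas Bgn and Prelp were higher in lung by 2.32 and 2.70. Of 12 genes of degradation and its inhibitors, 7 were higher in lung and 9 lower in liver, among them Timp3 with 3.18 in lung and -2.98 in liver. Only Itga1, a subunit of a collagen integrin, was called among 8 collagen receptors in lung, by 1.77 (adjusted p = 4.69e-06). Markers of fibroblasts and smooth muscle and those of endothelium moved alike. Of 12 fibroblast and smooth muscle markers, 8 were higher in lung, 7 higher in heart, 12 lower in liver and 7 lower in thymus, and of 8 endothelial markers 8, 5, 8 and 7 were called in those directions. Markers of hepatic stellate cells went another way. Of 7 such markers, 4 were higher and 0 lower in liver, and 2 higher and 3 lower in lung. In heart 2 were higher and 2 lower, and in thymus 0 and 5. The part of these cells in the collagen differences was not tested.

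The knock-outs were compared with WT across tissues in the same fit, with tissue as a block, to ask whether loss of p53 or p66 shifted collagen genes everywhere. In limma with Benjamini-Hochberg adjustment 0 collagen genes passed for p53-/- against WT, where 0.0055% of all genes did, and 4 of 42 had an unadjusted p under 0.05, beside 1873 of all 18193 genes. For p66-/- against WT 0 passed and 1 had an unadjusted p under 0.05, beside 717 of all genes. For p53-/- against p66-/- the counts were also 0 and 1, beside 749 of all genes, and 0.0% of all genes were called in both comparisons. The lowest p belonged to Col4a5, at -0.60 ± 0.19 in p53-/- against WT (adjusted p = 0.36). The next 4 were Col25a1 at 0.37, Col27a1 at 0.38, Col20a1 at 0.29 and Col22a1 at 0.30, with adjusted p from 0.441 to 0.507. The Col20a1 value came from a probe set ending in _s_at and turned to -0.05 with such probe sets left out. For p66-/- the lowest was Col1a2 at -0.44 ± 0.19 (adjusted p = 1.0), and between the knock-outs Col1a1 at 0.43 ± 0.18 (adjusted p = 0.937). Leaving out thymus and lung together also gave 0 in all 3 comparisons.

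Within a tissue each genotype had 1 array, so the differences have no replicate check and no p. The p53-/- and p66-/- differences share the WT array of their tissue. In thymus, 5 collagen genes were at least 2-fold lower in p53-/- than in WT on their brightest probe sets. They were 11.9% of the 42, where 4.81% of all genes were lower by that much. On these probe sets 0 collagen genes were higher, where 8.89% of all genes were (13.7% in either direction). Col3a1 read 9.16 in p53-/- thymus, against 10.99 in WT thymus, a difference of -1.84. Col14a1, a FACIT of fibril surfaces, read 6.38 in p53-/- against 8.10 in WT (-1.72), Col6a3 7.20 against 8.35 (-1.15), Col4a5 4.42 against 5.47 (-1.05) and Col4a1 9.02 against 10.04 (-1.02).

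The p66-/- thymus array lay between the others for all 5, at 10.71 for Col3a1, 7.13 for Col14a1, 7.39 for Col6a3, 5.02 for Col4a5 and 9.77 for Col4a1. On the brightest probe sets, 0 of the 42 genes reached 2-fold in p66-/- thymus, where 17.5% of all genes did (12.7% higher and 4.78% lower). The lowest were Col14a1 at -0.97 and Col6a3 at -0.96. Second probe sets went further for Col1a2, at -1.61 (6.87 in p66-/- against 8.48 in WT thymus), Col5a1 at -1.03 and Col3a1 at -1.0. Set against p66-/- in place of WT, p53-/- thymus had only Col3a1 past 2-fold, at -1.56, where 1.8% of all genes were (0.616% higher, 1.18% lower). A second probe set of Col3a1 gave 5.01 in p53-/-, 6.03 in p66-/- and 7.03 in WT thymus, the same order. Of the 5 genes, the others with further probe sets did not reach 2-fold on them in p53-/- thymus. Col4a1 differed by -0.62, Col14a1 by -0.98 and -0.36, and Col4a5, with 6.14 in p53-/- against 6.15 in WT thymus, by -0.01. Col6a3 had 1 probe set.

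The type I chains did not follow Col3a1 in p53-/- thymus. Col1a1 read 8.95 in p53-/- and 8.08 in p66-/-, against 8.25 in WT thymus, and its second probe set read 9.43 and 7.88, against 8.15, so that both were highest in p53-/-. Col1a2 read 10.24 and 9.69, against 10.43. Other matrix genes were also lower in p53-/- thymus, with 3 of 8 fibril-associated proteoglycans 2-fold lower. Ogn read 6.44 in p53-/- and 7.26 in p66-/-, against 8.36 in WT, and Lum 7.45 and 7.99, against 9.21. Of 12 fibroblast and smooth muscle markers, 4 were 2-fold lower in p53-/- than in WT thymus and 1 higher, and the list averaged 7.31 in p53-/- and 7.68 in p66-/-, against 7.86 in WT. The 10 skeletal muscle markers were all 2-fold higher in p53-/- thymus, 7 of 8 cardiomyocyte markers were 2-fold lower, and salivary markers were high only in WT thymus. Markers of the thymus itself were higher in both knock-outs, with 5 of 7 thymocyte and 5 of 8 thymic epithelium markers 2-fold higher in each. The thymocyte mean was 11.49 in p53-/- and 11.44 in p66-/-, against 10.19 in WT, and the thymic epithelium mean 9.91 and 10.22, against 8.79. Of 4 adipocyte markers 2 were 2-fold lower in p53-/- and 0 in p66-/- thymus. The part of these cells and tissues in the collagen differences was not tested.

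In lung, on the brightest probe sets, Col4a3 was the only collagen gene past 2-fold in either knock-out. It read 10.37 in p53-/- and 9.31 in p66-/- lung, against 8.17 in WT, differences of 2.20 and 1.14. At this fold 0.616% of all genes were higher and 4.14% lower in p53-/- lung (4.76% in either direction). In p66-/- lung 0.341% were higher and 0.313% lower (0.654% in either direction), and 1 of 42 collagen genes is 2.38%. The second probe set of Col4a3 did not follow, with 8.59 in p53-/- and 9.59 in p66-/-, against 9.02 in WT, so that its differences were -0.43 and 0.57. With the mean of both probe sets the p53-/- difference was 0.89, and 0 collagen genes reached 2-fold in either knock-out.

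The partners of Col4a3 split in a like manner. Col4a4 read 10.43 and 10.41, against 10.22 in WT, and 10.19 and 10.26, against 10.06, on its 2 brighter probe sets, which hardly moved. Its dimmest read 7.53 in p53-/- and 8.55 in p66-/-, against 8.93 in WT. Col4a5 read 9.69 and 10.50, against 10.39, on one probe set and 8.19 and 7.63, against 7.10, on the other. For each of these 3 genes the probe sets of 1 gene moved apart between p53-/- and WT lung.

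Among the collagen genes, disagreement of this size was most frequent on the p53-/- lung array. Of 27 collagen genes with more than 1 probe set, 5 had probe sets whose differences from WT were at least 2-fold apart in p53-/- lung and 0 in p66-/- lung, with a median distance of 0.60 and 0.33. The other tissues had 0 to 3 such genes per knock-out. The same count over all genes with several probe sets is not given here, so these counts are not compared with other genes. Col5a2 was another, with differences of 0.08 and -0.98, while Col8a1 was split in lung, thymus and heart. Signals from the 3′ end of Gapdh exceeded those from its 5′ end by 0.66 in p53-/- and 1.32 in p66-/- lung, against 2.29 in WT lung, and by 0.24 to 0.95 in the other tissues. Their part in the Col4a3 difference was not tested.

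**Figure D4:**
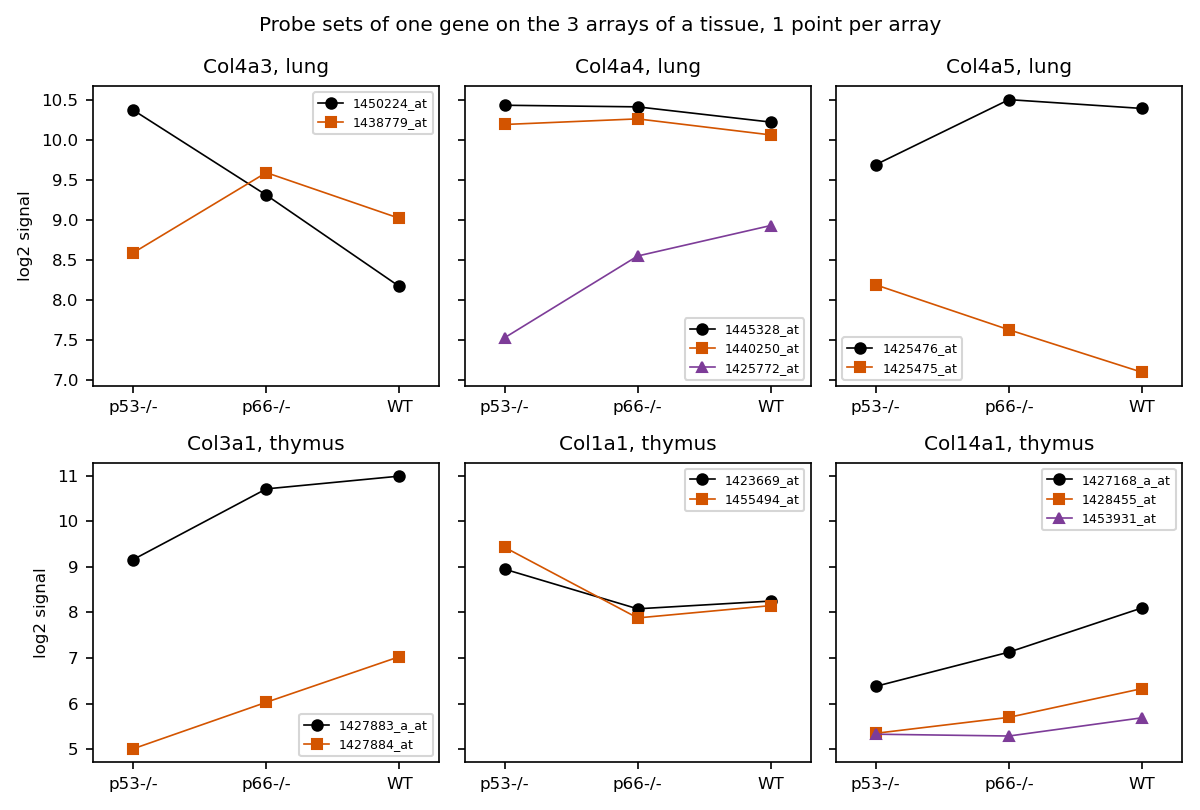
Log2 signal of each probe set of Col4a3, Col4a4 and Col4a5 on the lung arrays and of Col3a1, Col1a1 and Col14a1 on the thymus arrays, 1 point per array in the order p53-/-, p66-/-, WT. The Col4a3 probe sets cross in lung, whereas both Col3a1 probe sets are lowest and both Col1a1 probe sets highest in p53-/- thymus.

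On the brightest probe sets, heart and liver collagens changed little between genotypes. In heart 0 genes reached 2-fold in either knock-out, where 2.19% of all genes did in p53-/- (0.115% higher, 2.08% lower) and 1.85% in p66-/- (0.181% higher, 1.67% lower). The lowest was Col1a2, with 10.95 in p53-/- and 10.71 in p66-/-, against 11.69 in WT heart, and Col1a1, Col3a1 and Col4a5 were likewise below WT on both arrays. A second probe set kept this direction for Col3a1, with 7.38 and 7.18, against 8.15 in WT heart. The second probe set of Col1a1 was instead above WT on both arrays, with 9.54 and 9.38, against 9.27, and so was that of Col4a5, with 7.64 and 7.45, against 7.36. That of Col1a2 read 8.99 and 8.71, against 8.94. Col15a1 was above WT on both, with 9.61 and 9.47, against 8.88. WT heart also had more salivary gland signal, with marker means of 5.79 in p53-/- and 6.03 in p66-/-, against 8.44 in WT, and its part was not tested.

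In liver 0 genes reached 2-fold, where 0.511% of all genes did in p53-/- (0.0934% higher, 0.418% lower) and 0.385% in p66-/- (0.0824% higher, 0.302% lower). Differences lay between -0.47 and 0.60 in p53-/- and between -0.27 and 0.65 in p66-/-. Col18a1 differed by -0.19 in p53-/- and -0.27 in p66-/-, small beside its difference between tissues.

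**Figure D5:**
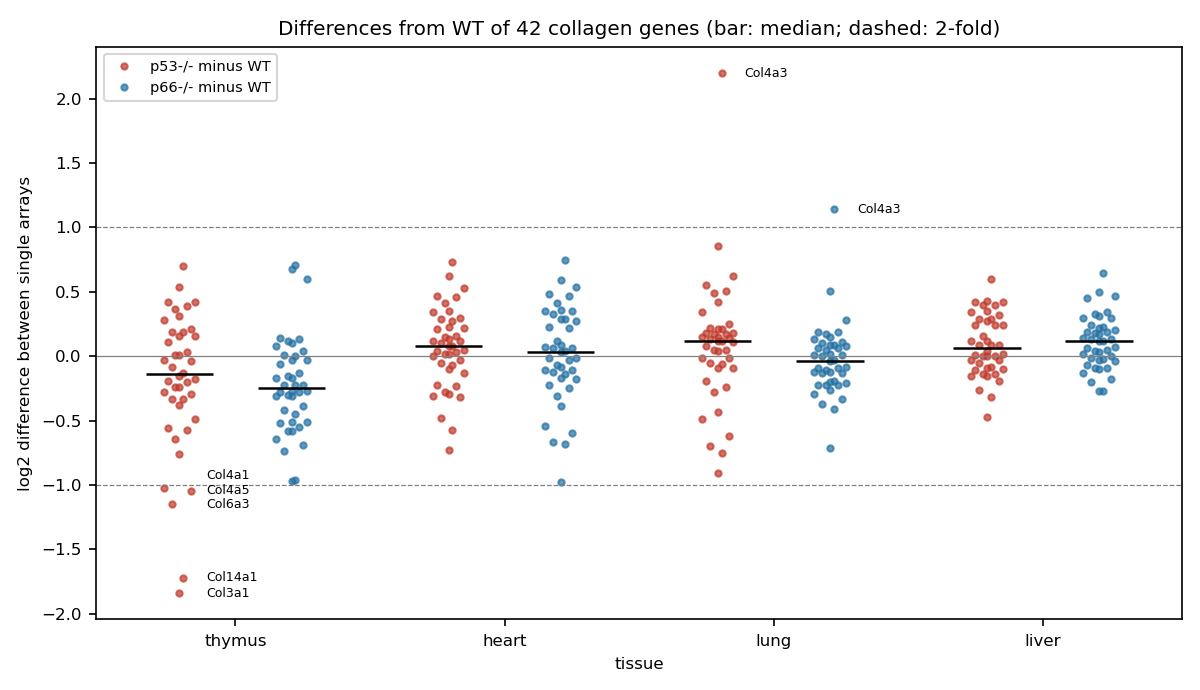
Log2 difference of each knock-out array from the WT array of its tissue for 42 collagen genes, with the median as a bar and 2-fold as dashed lines. Apart from 5 genes below the line in p53-/- thymus and Col4a3 above it in lung, all points lie within 2-fold.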

How the data were processed

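RNA pooled from 4 mice per tissue and genotype was hybridised to Affymetrix whole-genome mouse expression arrays. The values deposited by the authors are log2 signals per probe set, made with RMA in Partek 6.5. RMA forces the arrays to 1 distribution of signal, which can compress differences. No further normalization was applied. Probe sets with 1 gene symbol were kept (34945 of 45101), and each gene was read from the probe set with the highest mean.

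Tissue and genotype differences were fitted with limma 3.58.1 (R 4.3.3) on all 18193 genes and 12 arrays, with tissue and genotype as terms, 6 residual degrees of freedom and Benjamini-Hochberg adjustment over all genes at 0.05. The fit was tested on simulated data. Each array is a pool, and no pool was repeated for the same tissue and genotype. The p-values therefore do not measure the spread between pools alone. The residual spread of the fit also holds any genotype difference that varies between tissues, and transcripts of other tissues on single arrays. The pools may share mice across tissues. Within a tissue, log2 differences of single arrays were counted at 2-fold. Promoter windows came from RefSeq (GRCm38.p6) and were searched for motifs with Python 3.11.15. The probes' genome build is not given in the sources used here.

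Named genes were all type IV chains, Col1a1, Col1a2, Col3a1, the 6 highest and 4 lowest members past the threshold per tissue, members past 2-fold, the 5 of lowest p per genotype fit and up to 4 per list; other members were named after their values were seen. Members and lists were chosen with earlier results of these data known.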

Additional observations from a re-analysis of the deposited data

How the results depend on the processing

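With 1 array per tissue and genotype and pooled RNA, differences within a tissue could not be tested, and dim probe sets limit what can be seen for 11 of the 42 genes. The labels give no replicate numbers, so no fit used a replicate block, and arrays were matched only by tissue and genotype, which entered every main fit as blocks. Of the counts of genes, 224 alternatives lay within 1.5 times the main count and 26 did not. Restricting the fits to brighter genes gave 8 collagen genes in thymus, 11 in heart and 10 for lung against heart, where fewer genes were tested. Leaving out 1 array gave 8 to 18 in thymus, 14 to 26 in heart, 17 to 24 in lung, 16 to 20 in liver and 12 to 22 for lung against heart. The thymus count was 8 without the p53-/- thymus array, and the lung against heart count 12 without p53-/- heart, p66-/- heart or p66-/- lung and 13 without WT lung. The 3 genotype comparisons gave 0 to 0 when an array or a tissue was left out. The shares of all genes in these alternative fits are not given here, so the counts are not compared with other genes.

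Among differences within a tissue, the p53-/- thymus count of 5 was 3 with the mean of all probe sets, 8 at 1.5-fold, 2 at 3-fold and 1 against p66-/-. The p66-/- thymus count of 0 was 4 with repeated quantile normalization and with cyclic loess, 8 at 1.5-fold and 1 against p53-/-. In heart, p53-/- gave 1 with repeated quantile normalization and 3 at 1.5-fold, and p66-/- gave 6 at 1.5-fold. In lung, p53-/- gave 0 with the mean of probe sets and 7 at 1.5-fold, and p66-/- gave 0 with the mean, 2 at 1.5-fold and 0 at 3-fold. In liver each knock-out gave 1 at 1.5-fold. The shares of all genes at 1.5-fold, at 3-fold, with the mean of probe sets and under other normalizations are not given here. The counts at these settings are therefore not compared with other genes. Col20a1 in p53-/- against WT was 0.29 and turned to -0.05 without probe sets ending in _x_at or _s_at, which replaced its probe set. Of single genes' alternatives 2081 kept direction and side of the threshold and 180 lost the call. For Col4a3, the thymus call was lost in 9 of 12 fits without 1 array, and the lung against heart difference of 1.40 was 0.83 without p53-/- lung. The cause was not tested. Leaving out the WT thymus and p53-/- lung arrays, thymus and lung together, and the exchange of the reference array were chosen after seeing the data.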
